A study of Mus musculus with 12 samples.

Results

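The transcription factors that give microglia their identity were compared between microglia that express arginase-1 (ARG1+) and neighboring microglia that do not (ARG1-). The 9 factors were *Sall1*, *Sall3*, *Spi1*, *Irf8*, *Mef2a*, *Mef2c*, *Maf*, *Runx1* and *Cebpa*, and they were chosen by name, as the rows of the count table whose Ensembl identifiers carry these symbols in the GRCm38 annotation. All 9 were found among the 55487 genes of the table, and all 9 were among the 16908 genes kept by the filter on low counts. The lowest count of any of them in any library was 386, so none passed the filter through 1 population alone. RNA was sequenced from microglia of the basal forebrain and striatum of YARG mice at postnatal day 13. YARG mice carry a yellow fluorescent protein (YFP) reporter at the *Arg1* locus, which both populations and both sexes share, and the labels name no treatment. After a Percoll gradient, CX3CR1+CD206- cells were sorted by their YFP signal into ARG1+ and ARG1- microglia, the CD206 gate being meant to leave out perivascular macrophages. The 12 libraries were 3 of ARG1- females, 3 of ARG1+ females, 3 of ARG1- males and 3 of ARG1+ males, and each library held tissue pooled from several mice of 1 sex, so differences between single animals were not measured.

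Microglia arise from yolk sac progenitors and depend on a small set of transcription factors. PU.1, the ETS factor encoded by *Spi1*, opens the enhancers of the myeloid lineage, and IRF8 binds beside it at composite sites. RUNX1 and C/EBPα act earlier in blood cell formation, and RUNX1 is also found in microglia of the young brain. SALL1 is the zinc finger factor that separates microglia from other tissue macrophages and holds back inflammatory genes, and SALL3 is its close relative. MEF2A, MEF2C and c-MAF, the product of *Maf*, take part in the mature program, and c-MAF is linked to macrophage differentiation and quiescence.

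The promoters of *Sall1* and *Runx1* are shown because both genes were higher in ARG1+ microglia. Promoter windows were taken from RefSeq (GRCm38.p6) for 6 of the 9 factors, *Sall1*, *Irf8*, *Mef2a*, *Mef2c*, *Runx1* and *Cebpa*, and *Spi1*, *Maf* and *Sall3* are named only. The windows hold up to 250 bases before a start site, are read on the strand of the gene from 5′ to 3′, and carry in capitals any match to 6 motifs searched on both strands. The first is the outermost *Sall1* window (chr8:89044163-89044412, minus strand), the second the distal *Runx1* window with its exonic bases left out (chr16:92826150-92826324, minus strand), and the third the proximal *Runx1* window (chr16:92697330-92697579, minus strand).
Sall1 outermost promoter: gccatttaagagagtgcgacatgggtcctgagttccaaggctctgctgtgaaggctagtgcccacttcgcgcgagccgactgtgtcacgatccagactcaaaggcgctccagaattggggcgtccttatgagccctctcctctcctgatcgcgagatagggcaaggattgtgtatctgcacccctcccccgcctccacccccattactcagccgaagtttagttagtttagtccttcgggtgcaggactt
Runx1 distal promoter: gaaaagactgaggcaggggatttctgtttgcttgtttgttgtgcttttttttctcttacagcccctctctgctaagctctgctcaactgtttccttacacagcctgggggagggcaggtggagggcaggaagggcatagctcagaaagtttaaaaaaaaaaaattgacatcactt
Runx1 proximal promoter: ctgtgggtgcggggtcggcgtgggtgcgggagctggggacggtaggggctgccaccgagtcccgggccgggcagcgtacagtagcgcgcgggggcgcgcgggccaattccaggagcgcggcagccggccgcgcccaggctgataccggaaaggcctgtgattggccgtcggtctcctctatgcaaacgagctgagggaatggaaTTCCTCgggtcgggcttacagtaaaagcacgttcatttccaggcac
The motifs were the PU.1 core GAGGAA, the RUNX site TGTGGT, the MAF half-site TGCTGA, the C/EBP site TTGCNNAA and the MEF2 and IRF sites. The proximal *Runx1* window held 1 PU.1 core, read on the other strand as TTCCTC, 46 bases before the start site. The outermost *Sall1* window and the distal *Runx1* window held none of the 6. The PU.1 core was also found 114 and 103 bases before a start site of *Mef2a*, and 122 and 186 bases before 2 start sites of *Mef2c*. A MAF half-site lay 157 bases before a start site of *Irf8* and 104 bases before a further start site of *Mef2c*, and the windows of *Cebpa* held no match. Among 32851 windows of 250 bases, 23.3% held the PU.1 core, 14% the RUNX site, 16.1% the MAF half-site, 9.56% the C/EBP site, 3.2% the MEF2 site and 2.98% the IRF site. These matches describe the letters of the windows, and binding was not measured here.

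Total counts lay between 28356659 and 60625170 per library, and counting error of the 9 factors was at most 5.09% of a value. *Xist* and *Ddx3y* matched the labelled sex in 12 of 12 libraries, whereas *Arg1* itself had more than 3 counts in only 1 library, an ARG1+ one, with 52 counts. The sort can therefore not be checked on its own transcript in these counts. The paper likewise saw no *Arg1* transcripts in its sequencing. By RT-qPCR on cells sorted and extracted in the same way, it found *Arg1* expression only in the YFP+ population. The 22 microglial genes listed as downstream of the factors, such as *P2ry12*, *Tmem119* and *Csf1r*, together reached 96200 to 126000 CPM (the count of a gene scaled to a common, normalized library size) in ARG1- and 72400 to 84500 CPM in ARG1+ libraries. Marker lists of other cells were far lower. Of those, 11 neuronal markers summed to at most 13.7 CPM, 8 monocyte markers to at most 19.4, 9 neutrophil markers to at most 11.5, 8 endothelial markers to at most 83.6, 11 astrocyte markers to at most 243, 11 oligodendrocyte markers to at most 392 and 12 border macrophage markers to at most 854 CPM. *Cldn5*, *Slc17a6*, *Ly6c2* and *Elane*, which mark endothelial cells, excitatory neurons, classical monocytes and neutrophils, did not exceed 3 counts in any library. That held for 1 of the 8 endothelial, 1 of the 11 neuronal, 3 of the 8 monocyte and 4 of the 9 neutrophil markers. The filter on low counts kept 5, 8, 4 and 1 markers of these lists, respectively.

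Most of the factors were highly expressed in both populations. *Mef2c*, *Irf8*, *Mef2a*, *Sall1* and *Spi1* lay above 98.1% or more of the genes tested, *Maf* above 94.9%, *Sall3* above 80.9%, *Runx1* above 79.2% and *Cebpa* above 61.8%, by CPM. Levels were compared between genes per kilobase of exon (RPKM). In this scale the order over 12 libraries was *Spi1* (147 RPKM), *Irf8* (82.6), *Sall1* (74.4), *Mef2c* (42.9), *Mef2a* (28.5), *Maf* (22.3), *Cebpa* (9.03), *Sall3* (8.09) and *Runx1* (4.61). The order held in each of the 12 libraries for 5 of the 8 neighboring pairs. *Mef2a* exceeded *Maf* in 10 of 12 libraries. The remaining 2 pairs changed places between the populations. *Irf8* lay above *Sall1* in 6 of 6 ARG1- libraries but in 1 of 6 ARG1+ libraries, and *Cebpa* lay above *Sall3* in 6 of 6 and 1 of 6, respectively. The genes of each pair differ in length, and fold changes moved with gene length, as described below. This order was not taken with that trend removed.

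**Figure D1:**
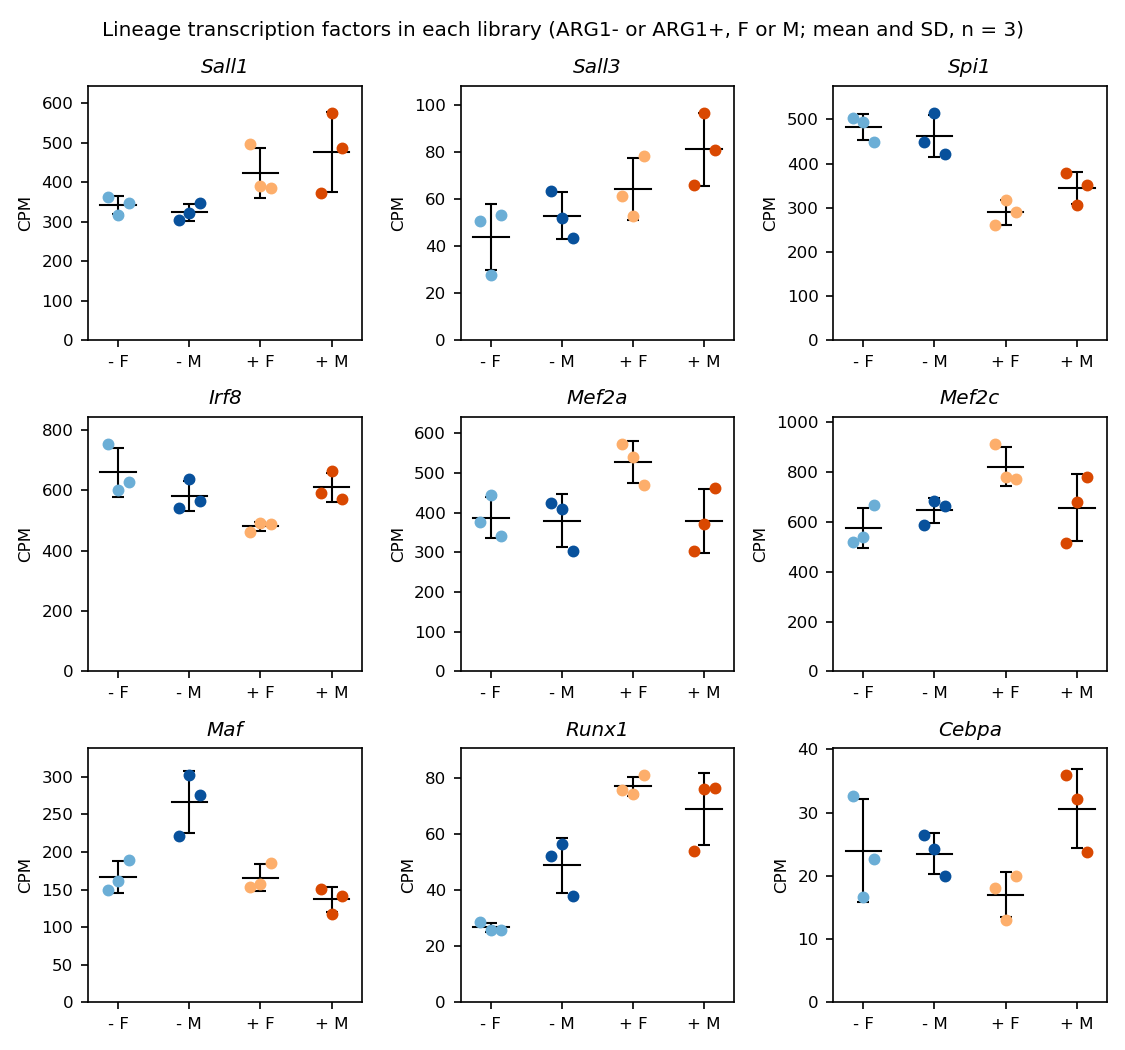
Level of each of the 9 factors in CPM (vertical axes, from 0) in ARG1- females and males and ARG1+ females and males. Points are libraries, the bar is the mean and the error bar the SD of 3 libraries. *Spi1* lies lower in all 6 ARG1+ libraries than in any ARG1- library and *Sall1* higher, *Runx1* is lowest in ARG1- females at 25.8 to 28.7 CPM, and *Maf* is highest in ARG1- males at 221 to 302 CPM.

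The main comparison asked which factors differ between ARG1+ and ARG1- microglia of both sexes. *Sall1*, *Sall3* and *Runx1* were higher in ARG1+ microglia and *Spi1* was lower, so that 3 of 9 factors passed the test upward and 1 downward. Of all genes tested, 6.44% passed it upward, 9.42% downward and 15.9% in either direction. *Irf8*, *Mef2a*, *Mef2c*, *Maf* and *Cebpa* did not pass it. The median log2 fold change was 0.22 over the 9 factors and 0.06 over all genes tested. The test was the quasi-likelihood test of edgeR with sex as a second term, with p values adjusted by Benjamini-Hochberg over all genes tested, and log2 fold changes are given with their SE. In sorted bulk samples, fewer cells that express a gene and less of its RNA per cell cannot be told apart.

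Fold changes also moved with the length of the gene. Among genes of at least 10 CPM, the median log2 fold change was -0.54 for 264 genes of up to 1000 exonic bases and rose through each class to 0.34 for 1629 genes of more than 8000 bases. Within libraries, the median deviation of the longest class minus that of genes up to 2000 bases lay between -0.53 and -0.33 on the log2 scale in ARG1- libraries and between -0.05 and 0.81 in ARG1+ libraries, the lowest ARG1+ value being that of male replicate 11. The exonic lengths of the factors run from 2636 bases (*Cebpa*) and 2695 bases (*Spi1*) to 14681 (*Mef2a*) and 15715 bases (*Mef2c*). When each library's trend on exonic length and GC content was removed, an alternative chosen after seeing the data, no factor passed the test upward and 3 passed it downward, *Spi1*, *Irf8* and *Maf*, against 4.9% and 7.51% of all genes. At an unadjusted p under 0.05 there were 6 of the 9, of which 2 upward, against 27.1% of all genes. *Spi1* was the single factor that passed the test in both forms. This value is therefore given beside each factor, and whether the trend comes from the cells or from the preparation of the libraries was not tested.

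**Figure D2:**
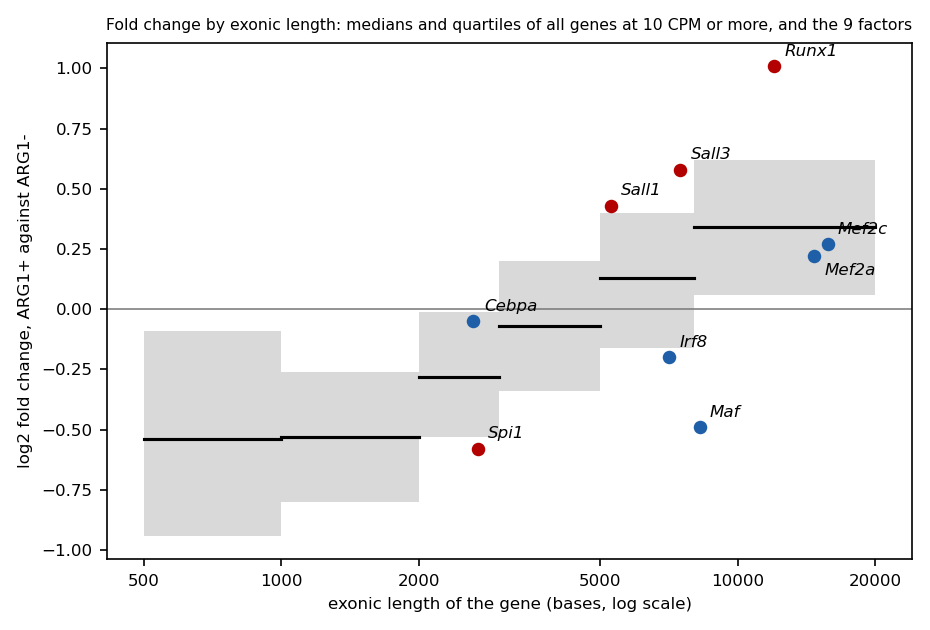
Log2 fold change of ARG1+ against ARG1- microglia (vertical axis) by exonic length in bases (horizontal axis, log scale). Black lines are the medians and grey boxes the quartiles of genes of at least 10 CPM in 6 length classes, the outer classes drawn only to the outermost tick marks, and points are the 9 factors, red where the adjusted p was under 0.05. Class medians rise from -0.54 to 0.34, *Sall1*, *Sall3* and *Runx1* lie above the upper quartile of their classes, *Spi1* at 2695 bases lies below the lower quartile of its class, and *Irf8* and *Maf* lie below those of theirs.

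*Sall1* (ENSMUSG00000031665, chr8:89027235-89044162 of GRCm38, minus strand, 5265 exonic bases) was measured at 362, 318 and 347 CPM in ARG1- females and at 304, 322 and 346 CPM in ARG1- males. In ARG1+ microglia the values were 496, 391 and 384 CPM in females and 372, 574 and 485 CPM in males. Every ARG1+ library thus lay above every ARG1- library, a pattern that 3.48% of all genes showed in this direction, and the ARG1+ libraries were more spread. The mean rose from 333 ± 22 to 450 ± 80.8 CPM (SD, n = 6 each), a log2 fold change of 0.43 ± 0.11 (adjusted p = 0.0239). The adjusted p exceeded 0.05 without ARG1- female replicate 2 (0.0543), ARG1- male replicate 5 (0.0546) or ARG1- male replicate 6 (0.0522), and with the length and GC trend removed the log2 fold change was 0.27 (adjusted p = 0.0828).

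*Sall3* (ENSMUSG00000024565, chromosome 18, minus strand, 7481 exonic bases), the lower expressed SALL factor, ran from 27.9 to 63.4 CPM in ARG1- libraries (median 51.2) and from 52.8 to 96.4 CPM in ARG1+ libraries (median 72.1). The populations overlapped. The log2 fold change was 0.58 ± 0.18 (adjusted p = 0.0467), and its 95% interval was 0.19 to 0.97. This call was the least firm of the 4. It was lost when any of 7 of the 12 libraries was left out, ARG1- female replicate 2, ARG1- male replicates 6 and 14, ARG1+ female replicates 7 and 15 and ARG1+ male replicates 12 and 16 (adjusted p 0.0691 to 0.101), and with the length and GC trend removed the log2 fold change was 0.23 (adjusted p = 0.423). The ratio of *Sall1* to *Sall3* within a library differed by -0.18 on the log2 scale between the populations (adjusted p = 0.478, exact permutation test), so no difference between the 2 SALL genes in their change was detected.

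*Spi1* (ENSMUSG00000002111, chr2:91082390-91115756, plus strand), which encodes PU.1, had the highest level per length of the 9 and was the one factor to pass the test of the main comparison downward. ARG1- values were 503, 495 and 449 CPM in females and 450, 514 and 422 CPM in males. ARG1+ values were 262, 318 and 290 CPM in females and 378, 307 and 351 CPM in males. All 6 ARG1+ libraries lay below all 6 ARG1- libraries, as was the case for 6.56% of all genes. The mean fell from 472 ± 36.6 to 318 ± 41.9 CPM (SD, n = 6 each), and the log2 fold change was -0.58 ± 0.10 (95% interval -0.78 to -0.37, adjusted p = 0.0023). The call held under all 22 alternatives, with an adjusted p of at most 0.0099, and the log2 fold change was -0.50 with the length and GC trend removed.

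*Irf8* (ENSMUSG00000041515, chr8:120736358-120756694, plus strand), the partner of PU.1, ran from 542 to 752 CPM in ARG1- libraries (median 613) and from 463 to 664 CPM in ARG1+ libraries (median 531). The log2 fold change of -0.20 ± 0.11 did not pass the test (adjusted p = 0.264). With the length and GC trend removed it was -0.49 (adjusted p = 0.00252). The ratio of *Spi1* to *Irf8* within a library, a measure that does not depend on library scaling, lay between -0.58 and -0.27 on the log2 scale in ARG1- libraries and between -1.11 and -0.63 in ARG1+ libraries. The populations did not overlap, and the mean ratio fell by 0.39 (p = 0.00216, the smallest that the exact two-sided permutation test can give, adjusted p = 0.00649 over the 6 ratios tested). *Irf8* is longer than *Spi1*, and with the trend removed the difference in the ratio was -0.02 (adjusted p = 0.911).

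**Figure D3:**
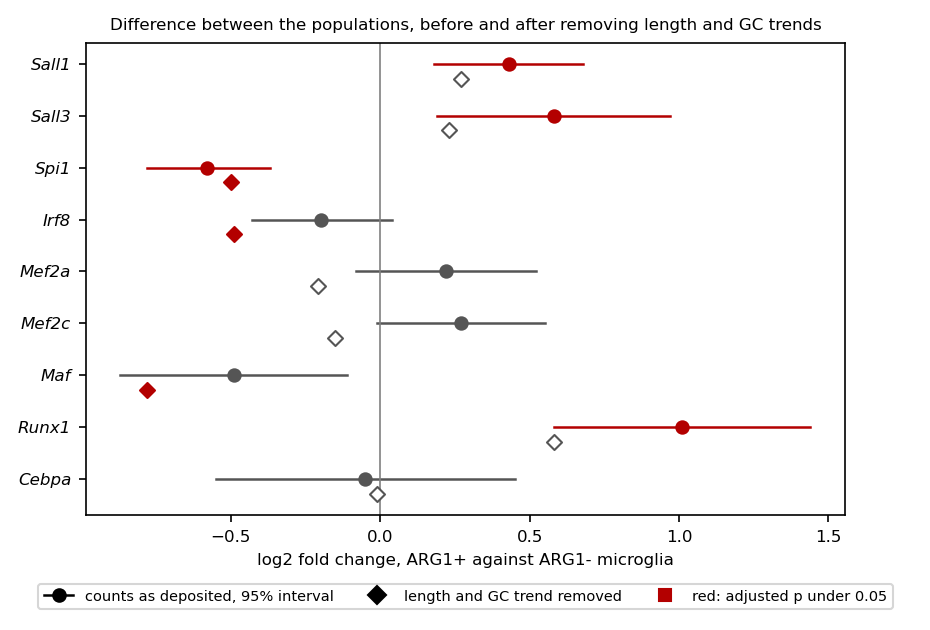
Log2 fold change of ARG1+ against ARG1- microglia (horizontal axis) for the 9 factors. Circles with lines are values and 95% intervals from the deposited counts, diamonds are values with each library's length and GC trend removed, and red marks an adjusted p under 0.05. *Spi1* is red in both forms, *Sall1*, *Sall3* and *Runx1* only as deposited, *Irf8* and *Maf* only with the trend removed, and *Mef2a* and *Mef2c* change sign.

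The MEF2 factors, which bind A/T-rich sites at enhancers of mature microglia, did not pass the test. *Mef2a* (ENSMUSG00000030557, chr7:67231163-67372858, minus strand) ran from 304 to 443 CPM in ARG1- and from 303 to 572 CPM in ARG1+ libraries, and its log2 fold change was 0.22 ± 0.14 (95% interval -0.08 to 0.52, adjusted p = 0.319). *Mef2c* (ENSMUSG00000005583, chr13:83504034-83667080, plus strand) ran from 518 to 684 and from 514 to 911 CPM, and its log2 fold change was 0.27 ± 0.13 (95% interval -0.01 to 0.55, adjusted p = 0.191). The populations overlapped in both genes. *Mef2c* passed the test upward without ARG1+ male replicate 11 (0.38, adjusted p = 0.0363). Both genes are long, and both values turned negative with the length and GC trend removed (-0.21 and -0.15, adjusted p = 0.313 and 0.16), so no direction can be given for them. Their ratio differed by -0.04 on the log2 scale (adjusted p = 0.79, exact permutation test).

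*Maf* (ENSMUSG00000055435, chr8:115682942-115707794, minus strand), the gene of c-MAF, was measured at 149, 162 and 190 CPM in ARG1- females and at 221, 302 and 276 CPM in ARG1- males. In ARG1+ microglia it was measured at 153, 158 and 186 CPM in females and at 151, 118 and 142 CPM in males. The 3 ARG1- male libraries were the highest of the 12, and the ARG1- females overlapped both ARG1+ groups. The ARG1+ males lay below the ARG1+ females (12.5% of all genes did not overlap between the sexes in ARG1+ microglia, in either direction). Over both sexes the log2 fold change was -0.49 ± 0.17 and did not pass the test (adjusted p = 0.08), though it did without ARG1- female replicate 1 (-0.58, adjusted p = 0.0434) and with the length and GC trend removed (-0.78, adjusted p = 0.0242).

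*Runx1* (ENSMUSG00000022952, chr16:92601466-92826149, minus strand), whose start sites were shown above, had the largest fold change of the 9. ARG1- values were 28.7, 26 and 25.8 CPM in females and 52.2, 56.5 and 37.8 CPM in males. ARG1+ values were 75.8, 74.4 and 81 CPM in females and 54.1, 76.2 and 76.5 CPM in males. One ARG1+ library, male replicate 11, lay below the highest ARG1- library, and all other ARG1+ libraries lay above every ARG1- library. The mean rose from 37.8 ± 13.6 to 73 ± 9.53 CPM (SD, n = 6 each), a log2 fold change of 1.01 ± 0.20 (95% interval 0.58 to 1.44, adjusted p = 0.00566), and the call held with any 1 library left out. At 12025 exonic bases *Runx1* is a long gene, and with the trend removed the log2 fold change was 0.58 (adjusted p = 0.0556). Relative to *Cbfb*, the gene of its non-DNA-binding partner, *Runx1* rose by 0.73 on the log2 scale (adjusted p = 0.013, exact permutation test), and by 0.10 with the trend removed (adjusted p = 0.911).

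*Cebpa* (ENSMUSG00000034957, chr7:35119293-35121928, plus strand), needed for the step from progenitor to myeloid cell, was the factor of lowest CPM. It ran from 16.6 to 32.7 CPM in ARG1- and from 13.1 to 35.9 CPM in ARG1+ libraries. The log2 fold change was -0.05 ± 0.23 (95% interval -0.55 to 0.45, adjusted p = 0.907), and its sign changed under 5 of 22 alternatives. This value is taken over both sexes. Within females it was -0.49 ± 0.28 (adjusted p = 0.341, edgeR) and within males 0.38 ± 0.28 (adjusted p = 0.462). The difference between the sexes did not pass edgeR's test (adjusted p = 0.536). The ratio of *Cebpa* to *Cebpb* differed by -0.15 (adjusted p = 0.468, exact permutation test).

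**Figure D4:**
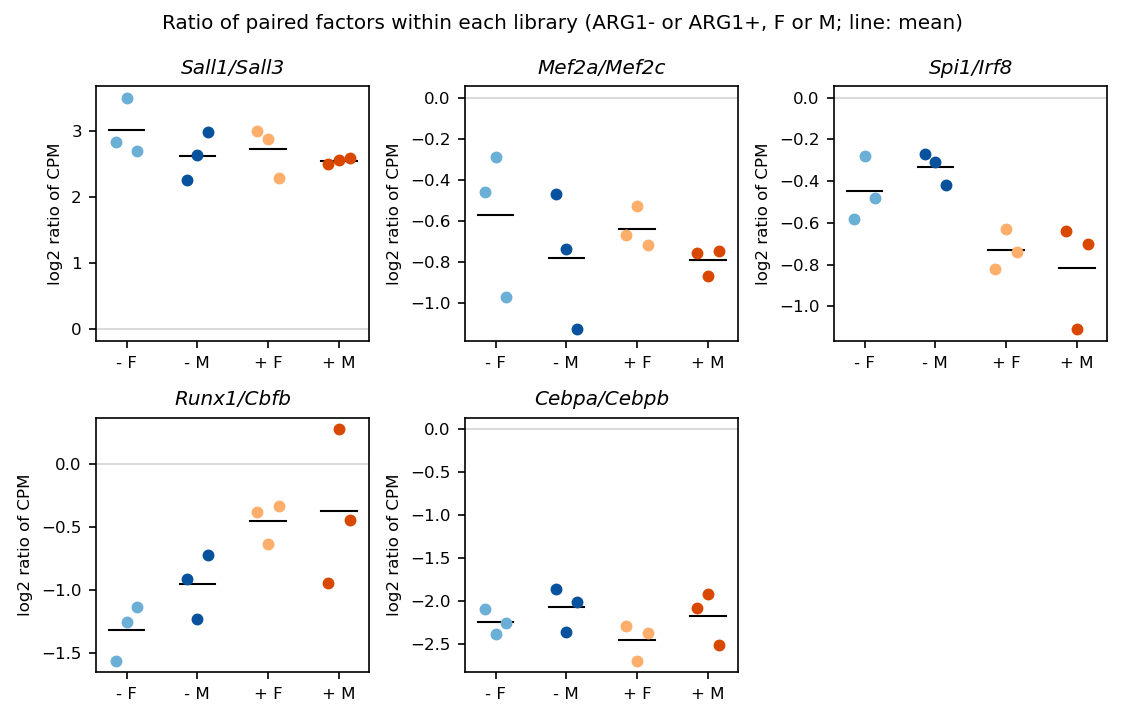
Log2 ratio of the CPM of 2 factors within each library (vertical axes) for 5 pairs, in ARG1- females and males and ARG1+ females and males. Points are libraries and bars group means of 3. The 2 populations do not overlap in *Spi1*/*Irf8* (-0.58 to -0.27 against -1.11 to -0.63), and they overlap in the other pairs.

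The second comparison took each sex on its own, in a fit of the 4 group means. In females, *Runx1* rose and *Spi1* and *Irf8* fell (3 of 9, where 6.76% of all genes passed), and in males only *Maf* passed the test, downward (1 of 9, where 5.13% of all genes passed). *Runx1* changed by 1.52 ± 0.19 on the log2 scale in females (adjusted p = 0.00437) and by 0.50 ± 0.19 in males (adjusted p = 0.142). *Maf* changed by -0.02 ± 0.16 in females (adjusted p = 0.971) and by -0.96 ± 0.16 in males (adjusted p = 0.0175). *Irf8* changed by -0.46 ± 0.11 in females (adjusted p = 0.0369) and by 0.07 ± 0.11 in males (adjusted p = 0.784). *Spi1* was negative in both, at -0.73 ± 0.12 (adjusted p = 0.00955) and -0.42 ± 0.12 (adjusted p = 0.0675), with no overlap of libraries in either sex. *Sall1* was positive in both, at 0.31 ± 0.16 (adjusted p = 0.282) and 0.56 ± 0.16 (adjusted p = 0.0646), again with no overlap. In either direction 32% of all genes did not overlap in females and 29% in males. With the length and GC trend removed, *Runx1* in females (1.07, adjusted p = 0.00692), *Irf8* in females (-0.62, adjusted p = 0.0118) and *Maf* in males (-1.28, adjusted p = 0.0169) passed the test, as did *Spi1* in both sexes (adjusted p = 0.014 and 0.0266), where 4.95% of all genes passed in females and 2.77% in males. In males *Irf8* then turned to -0.36 (adjusted p = 0.0873) and *Runx1* was at 0.09 (adjusted p = 0.833), and the interaction of *Irf8* was -0.26.

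**Figure D5:**
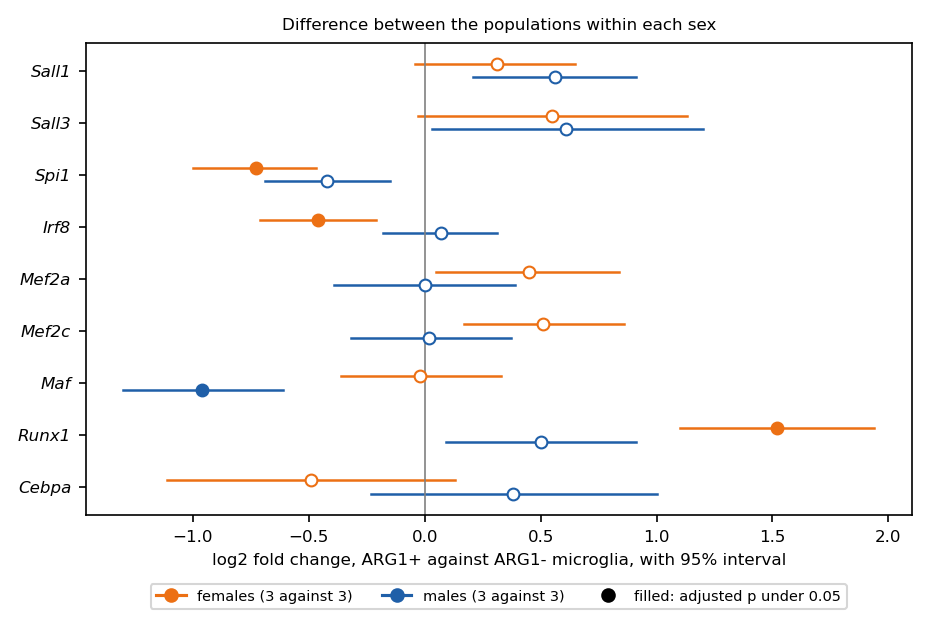
Log2 fold change of ARG1+ against ARG1- microglia (horizontal axis) within females and within males for the 9 factors, with 95% intervals. Filled circles have an adjusted p under 0.05. *Maf* changes by -0.02 in females and -0.96 in males and *Runx1* by 1.52 and 0.50, and the difference between the sexes did not pass edgeR's test for either gene.

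The difference between the sexes was tested as an interaction. With edgeR it passed for none of the 9 factors and for 0 of 16908 genes, while 4 factors and 1576 genes (9.32%) had an unadjusted p under 0.05. In edgeR's fit the interaction was 0.94 ± 0.22 on the log2 scale for *Maf* (adjusted p = 0.36), 1.02 ± 0.26 for *Runx1* (adjusted p = 0.433) and -0.53 ± 0.16 for *Irf8* (adjusted p = 0.456). DESeq2's Wald test passed 2 factors, *Maf* (adjusted p = 0.00507) and *Runx1* (adjusted p = 0.00588), and 319 genes (1.81%). The same libraries enter the comparison of females with males in ARG1- microglia, where both genes were lower in all 3 female than in all 3 male libraries (10.5% of all genes did not overlap in either direction). The log2 difference was -0.67 ± 0.16 for *Maf* (adjusted p = 0.248, edgeR) and -0.86 ± 0.19 for *Runx1* (adjusted p = 0.208). With edgeR none of the 9 factors passed that test (2 had an unadjusted p under 0.05, as did 10% of all genes), which 0.0946% of all genes passed. In ARG1+ microglia none passed either (3 had an unadjusted p under 0.05, as did 3.12% of all genes), and 0.0355% of all genes did. There *Irf8* and *Cebpa* were lower, and *Mef2a* and *Maf* higher, in all 3 female than in all 3 male libraries. In either direction 12.5% of all genes did not overlap in that comparison.

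Relatives, partners and targets of the factors were taken from lists set by gene family and known function, with earlier results of these data known. Of 26 further genes of the same families, 19 were tested, 2 rose and 2 fell, with a median log2 fold change of 0.09, against 6.44% of all genes passed upward and 9.42% downward. The small MAF gene *Mafg* rose from 77.7 ± 15.7 to 154 ± 15.9 CPM (log2 fold change 1 ± 0.15, adjusted p = 0.00119) and *Mef2d* rose by 0.72 ± 0.20 (adjusted p = 0.0311). *Cebpd*, a C/EBP gene of the acute phase response, fell from 133 ± 17.8 to 69.1 ± 15.6 CPM (-0.95 ± 0.15, adjusted p = 0.00197), and *Irf5* fell by 0.29 on the log2 scale (adjusted p = 0.0327). *Mafg* and *Cebpd* passed under all 22 alternatives, whereas *Mef2d* and *Irf5* passed in 6 and 4 of the 12 fits that left out 1 library and did not pass with the length and GC trend removed (adjusted p = 0.0649 and 0.116).

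Of 35 partners and other regulators, 34 were tested, 5 rose and 1 fell, with a median of 0.26, a count near the 15.9% of all genes that passed in either direction. *Egr1*, an early response gene, rose from 7.87 ± 3.46 to 19.4 ± 2.97 CPM (log2 fold change 1.31 ± 0.28, adjusted p = 0.00825), and *Prdm1*, the gene of the repressor BLIMP1, rose from 24.7 ± 5.69 to 43.8 ± 7.58 CPM (0.83 ± 0.18, adjusted p = 0.0102). *Foxp1* (0.82), *Bhlhe41* (0.96) and *Zeb2* (0.70) also rose (adjusted p = 0.0271, 0.0271 and 0.0382), and *Rxrb*, a retinoid X receptor gene, fell by 0.54 on the log2 scale (adjusted p = 0.0313). With the length and GC trend removed *Egr1* and *Prdm1* passed upward and *Rxrb* downward, and *Zeb2*, with 19942 exonic bases, was at 0.18 (adjusted p = 0.542). *Bhlhe41* is a repressor that acts in microglia and other tissue macrophages, and it was at 0.74 (adjusted p = 0.0781) with the trend removed. Of the 12 fits that left out 1 library, *Egr1* and *Prdm1* passed in 12, *Foxp1* in 7, *Bhlhe41* and *Rxrb* in 6 and *Zeb2* in 4. *Foxp1* was at 0.36 (adjusted p = 0.259) with the trend removed. Of 16 factors of other macrophages and blood cells, 7 were tested. *Pparg*, the lipid-sensing nuclear receptor of alveolar macrophages, passed the filter on low counts only through the ARG1+ libraries, so it had to differ and its call is not counted here. It was without a count in all 6 ARG1- libraries and reached 1.44 ± 0.942 CPM (SD, n = 6) in ARG1+ libraries. *Gata1*, *Gata3*, *Gata6*, *Ebf1*, *Pax5* and *Tcf7*, which mark erythroid, lymphoid and peritoneal macrophage programs, did not exceed 3 counts in any library.

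The microglial genes listed as downstream of the factors fell as a list. From these same libraries the paper reported most of its homeostatic genes as lower in ARG1+ microglia, and several of them, such as *Siglech* and *Gpr34*, are on the list. The count is therefore not an independent result, and whether the factors act on these genes was not tested. Of 22 tested, 18 passed the test downward and none upward, with a median log2 fold change of -0.62, against 9.42% of all genes passed downward. An unadjusted p under 0.05 in either direction was found for 19 of them and for 29.1% of all genes. *Siglech*, a sialic acid-binding receptor of microglia, fell from 2550 ± 218 to 1550 ± 146 CPM (-0.73 ± 0.08, adjusted p = 0.000426). *Cst3*, the gene of cystatin C, fell from 17500 ± 1430 to 8500 ± 1830 CPM (-1.04 ± 0.13, adjusted p = 0.000676), *Aif1*, the gene of IBA1, from 456 ± 63.8 to 190 ± 40.2 CPM (-1.26 ± 0.15, adjusted p = 0.000578) and *Crybb1* from 633 ± 102 to 272 ± 49.6 CPM (-1.21 ± 0.14, adjusted p = 0.000462). *Gpr34* (-0.92) and *C1qb* (-0.67) fell as well (adjusted p = 0.000655 and 0.00101). Many of these genes are short, and with the length and GC trend removed 14 of the 22 passed downward, with a median of -0.39. *Gpr34* was then at -0.36 (adjusted p = 0.0972).

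Other sets of genes were counted in the same contrast, and their part in the values of the factors was not tested. Of all genes tested, 6.44% passed upward and 9.42% downward, and 29.1% had an unadjusted p under 0.05 in either direction. A list of 14 genes held genes with introns often kept in the nucleus, and the nuclear RNAs *Neat1* and *Malat1*. Of these 14, 8 rose and none fell (10 had an unadjusted p under 0.05). Their summed level was 2500 to 4970 CPM in ARG1- and 5270 to 8730 CPM in ARG1+ libraries, with *Leng8* at a log2 fold change of 1.86 and *Neat1* at 2.58. Of 14 immediate early genes, which respond to dissociation and other stimuli, 12 were tested and 2 rose, *Egr1* and *Atf3* (0.99, passed in 3 of the 12 fits that left out 1 library), and their summed level overlapped, at 328 to 528 and 426 to 509 CPM. Of 12 border macrophage markers 9 were tested and 1 rose, *Stab1* (0.82, adjusted p = 0.0277, passed in 5 of the 12 fits that left out 1 library and at 0.30 with adjusted p = 0.189 with the length and GC trend removed), with sums of 323 to 528 and 424 to 854 CPM. The median log2 fold change of this list was 0.67, and 2 of its markers had an unadjusted p under 0.05. With the trend removed the median was 0.89, and 1 marker other than *Stab1* passed upward. Among the other lists, *Plac8* of the monocyte markers, *Cnp* of the oligodendrocyte markers and *Slc1a3* and *Fabp7* of the astrocyte markers fell (*Fabp7* in 3 of the 12 fits that left out 1 library, and at adjusted p = 0.0895 with the trend removed), and no neutrophil, neuronal or endothelial marker passed the test (1 in each of these 3 lists had an unadjusted p under 0.05). The oligodendrocyte list had a median of -0.91, and 5 of 10 tested had an unadjusted p under 0.05. Its sums were 267 to 392 CPM in ARG1- and 171 to 268 CPM in ARG1+ libraries. For the astrocyte list the median was -0.55, with 4 of 11 and sums of 186 to 243 and 148 to 169 CPM.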

How the data were processed

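RNA of 12 libraries was sequenced by the authors as 75-base single-end reads after SMART-Seq v4 amplification and Nextera XT preparation. Per the submitters' notes and the methods, reads were demultiplexed with bcl2fastq 2.20.0, aligned to GRCm38 with STAR 2.6.1d and counted with featureCounts 1.5.1. The deposited values are raw counts per gene, which the authors compared with DESeq2 1.28.1. The strand setting and annotation release are not given in the sources used here, and *Mef2a*, *Maf*, *Runx1* and *Cebpa* share 302, 440, 106 and 51 exonic bases with genes on the other strand. SMART-Seq reads carry no molecular identifiers or strand, so counting errors do not cover copies made in amplification. The 95% intervals come from the edgeR fit and include the spread between libraries. Symbols and lengths came from GENCODE, which matched 55227 identifiers.

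Genes were filtered (filterByExpr), normalized by TMM and tested in R 4.3.3 with edgeR 4.0.16 (quasi-likelihood, Benjamini-Hochberg, limit 0.05), with ARG1 status and sex as terms. Sexes were compared in a fit of 4 group means. Ratios of CPM were compared by exact two-sided permutation. Replicates differed by 44.4 to 135 times sampling noise (chi-square over its degrees of freedom), so each counted once. Scripts were tested on simulated data.

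Alternatives were DESeq2 size factors, upper-quartile factors, other filters, DESeq2 1.42.0, no sex term, a term for libraries numbered 13 to 16, thinned counts, each library left out, and length and GC trends removed (mgcv 1.9.3). The 9 factors and the gene lists were chosen with earlier results of these data known. Named are the 9 factors, up to 6 passing genes of each list by smallest p, and the 3 genes most correlated with each passing factor. *P2ry12*, *Tmem119*, *Csf1r* and markers at or near 0 are named as examples only. The results of 1 gene, a ratio with it included, are not reported here.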

Additional observations from a re-analysis of the deposited data

Results flagged for a closer look

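*Runx1* in ARG1+ male replicate 11 stood apart from its population. It was measured at 54.1 CPM, whereas the other 5 ARG1+ libraries lay between 74.4 and 81 CPM, so that the gap to the nearest library took 0.756 of the whole range, above Dixon's limit of 0.625 for 6 libraries. It was the single such value among 30 sets of 6 libraries searched, where chance gives about 1.5. The same library had the lowest difference between long and short genes among ARG1+ libraries (-0.05 on the log2 scale, median of the population 0.50), and *Mef2c* at 514 CPM and *Mef2a* at 303 CPM were also lowest in it. Without it the log2 fold change of *Runx1* remained past the threshold, as it did without any other library.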

How the results depend on the processing

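The *Spi1* decrease kept its direction and its side of the threshold under every alternative tried. The trend on exonic length and GC content, removed after seeing the data, changed most: 0 factors were then higher and 3 lower, and the log2 values of *Mef2a* (-0.21) and *Mef2c* (-0.15), of the ratios *Sall1*/*Sall3* (0.02), *Spi1*/*Irf8* (-0.02) and *Runx1*/*Cbfb* (0.10) and of the *Sall3* interaction (0.29) reversed or no longer passed. The cause of the trend was not tested. With single libraries left out, 1 to 4 factors were higher, with 1 without ARG1- female replicate 2 or ARG1- male replicate 6 and 4 without ARG1+ male replicate 11, and 1 to 2 were lower, with 2 without ARG1- female replicate 1. *Sall3* also failed with no filter (adjusted p = 0.0536), with ARG1 status alone (0.0536) and with a term for libraries numbered 13 to 16 (0.0564). Over all genes, 1089 were higher and 1593 lower. DESeq2 gave 2138 higher with sex and 2013 without, and single libraries left out gave 690 to 1116 higher, lowest without ARG1+ male replicate 12, and 1048 to 1553 lower, lowest without ARG1+ male replicate 16. *Cebpa* was at 0.05 with DESeq2 on ARG1 status alone, at 0.01 with edgeR on ARG1 status alone and at -0.14 to 0.12 with libraries left out. The *Mef2a*/*Mef2c* ratio difference ran from -0.13 to 0.04 and the *Sall3* interaction from -0.31 to 0.09 with libraries left out. DESeq2 called the interaction for 2 factors. No paired analysis was possible because the ARG1+ and ARG1- groups share no replicate numbers and the labels do not say which libraries share a litter. The tests judge differences against the spread between pooled samples, with 3 libraries a group and 6 a population.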

Other observations

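The genes whose levels over the 12 libraries were most like those of the 4 factors that passed the test are given as a description, since all 12 libraries enter both genes and the 2 populations lie apart. Among 8953 genes of at least 10 CPM on average, *Spi1* was most like *Polr2e* (Pearson r = 0.972), which encodes a subunit shared by the RNA polymerases, *Mzt2* (0.97) and *Inka1* (0.97). *Sall1* was most like *Secisbp2l* (0.937), *Gm27517* (0.935) and the copper transporter gene *Atp7a* (0.93). *Sall3* was most like the cytokine receptor gene *Csf2rb2* (0.933), *Fry* (0.93) and *Capn15* (0.928). *Runx1* was most like *Lcor* (0.923), the kinase gene *Gsk3b* (0.922) and *Tmem170b* (0.92). By Spearman correlation only *Atp7a* for *Sall1* and *Fry* for *Sall3* were also among the 3 highest.

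The label numbers lie between 1 and 16, and each group holds a library numbered 13 to 16. What the numbers stand for is not given in the labels, and the split at 13 was chosen here. Differences between the populations were taken as values within the libraries numbered 13 to 16 and within those numbered 1 to 12. Among the 4 libraries numbered 13 to 16, *Runx1* differed by 1.33, *Spi1* by -0.45, *Sall1* by 0.32 and *Sall3* by 0.73 in mean log2 CPM. Among the 8 libraries numbered 1 to 12 the same genes differed by 0.85, -0.64, 0.47 and 0.54. *Mef2a* differed by 0.53 in the first set and by 0.07 in the second.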
